A study of Rattus norvegicus with 8 samples.

Results

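Smooth muscle cells of the rat pulmonary artery were compared after 2 h of S-nitrosoglutathione (GSNO), which donates nitric oxide, and without it. The comparison rests on 4 of the 8 arrays of the series, 2 at 2 h and 2 controls, paired by the array number that the labels give (1 or 2). Its members are the 8740 of 8799 features of the Affymetrix array of the rat genome U34 set (A) that are not control features of the array, and 5877 of these passed a filter on low signal and were tested. The cells were primary cultures grown from pulmonary artery explants of adult Sprague-Dawley rats after removal of the endothelium and the adventitia, per the labels' protocols. The other 4 arrays hold the same kind of cells after 1 h and 4 h of GSNO, again 2 arrays each, and entered the same fit. The sources disagree on the GSNO concentration: they print the same figure, in μmol/L in the series design and in mmol/L in the treatment protocol. The controls have no stated time, so 2 h of culture and 2 h of GSNO cannot be told apart. The series design names 2 preparations of cells but does not tie them to the array numbers. Where both arrays of a group come from the same preparation, the p-values speak only of the spread from array to array. How many rats gave the cultures is not given in the sources used here.

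GSNO is the S-nitroso form of the tripeptide glutathione. It releases nitric oxide and can pass its nitroso group to the thiols of proteins. In vascular smooth muscle, nitric oxide binds the haem of soluble guanylate cyclase, the enzyme makes cyclic GMP, and cyclic GMP-dependent protein kinase then lowers calcium and relaxes the cell. Modified thiols can also release the transcription factor NRF2 from its inhibitor KEAP1, and NRF2 drives genes of glutathione synthesis and detoxification. Cyclic nucleotides act on transcription through CREB, a factor that binds the cAMP response element of its target promoters.

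Median signal was 123 to 141 on the 4 arrays compared, and the 3' to 5' ratio of signal lay between 0.99 and 1.07 for the beta-actin control probes and between 0.934 and 1.01 for those of GAPDH. Within each array number, the control and the 2 h array shared the recorded experiment, chip lot, fluidics setting and scan day, and all of these differed between the numbers. Of the 7 smooth muscle markers on the array, 6 were above the 40th percentile of signal on both control arrays. Signal of Acta2, smooth muscle actin, was 23826 and 12757 in control and 16600 and 10882 at 2 h, and desmin (Des) was below that percentile on all 4 arrays (14.8 to 29.7). Collagens and other markers of fibroblasts and adventitia were also above it in control (9 of 9). Their summed signal was 48624 and 45148 in control and 40046 and 37424 at 2 h. That of the smooth muscle markers was 49627 and 33533 and then 42845 and 28662. Single smooth muscle markers went both ways: of the 6 tested, 3 were higher at 2 h and 3 lower (median log2 fold change -0.04). Markers of endothelium (3 of 8 above the percentile in control), leukocytes (4 of 11), lung epithelium (3 of 11) and cardiac and skeletal muscle (6 of 16) were few. The endothelial markers Kdr (18.3 to 38.6) and Sele (5.45 to 37.7) and the leukocyte Itgam (3.68 to 36.4) were weak on all 4 arrays. So were the epithelial Sftpc and Scgb1a1 (10.6 to 42.3). Other members were brighter in control, such as Aqp1 (883 and 3324), Krt8 (341 and 339) and Sftpb (322 and 246) of the lung list. The leukocyte C1qc (507 and 351), Cd14 (251 and 422) and Ptprc (112 and 126) were brighter too. So were the endothelial Flt1 (332 and 154) and the muscle gene Acta1 (655 and 140). The lung list summed to 2040 and 4202 in control and 2298 and 3001 at 2 h. Summed signal of the endothelial list was 1423 and 1175 in control and 1564 and 2135 at 2 h, of which Thbd gave 712 and 635 and then 1052 and 1705. In whole cultures, fewer cells of a type and less RNA per cell cannot be told apart.

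After 2 h, 129 probe sets rose and 57 fell, which is 2.19% and 0.97% of those tested (3.16% in all; limma with the array number as a block, adjusted p under 0.05). They covered 66 genes that rose and 37 that fell, and no gene had probe sets called in opposite directions. A further 24 rising and 11 falling probe sets carried no single gene symbol. The rises ran from 0.75 to 5.93 on the log2 scale with a median of 1.82, and the falls from -0.91 to -3.81 with a median of -1.63. Over all probe sets tested the median was -0.06, with quartiles of -0.26 and 0.19. All of the 186 probe sets called moved the same way in both array pairs, against 59% of all tested. The control and 2 h signals did not overlap for 184 of the 186, against 29.9% of all tested. The exceptions were Per2 and Ankrd1, whose levels differed between the array numbers. These shares are no separate support, since the calls were made from the same arrays, paired by number. Each log2 fold change was taken on signal plus an offset of 21.1, which understates the change of weak genes. For 18 of the rising probe sets both control arrays lay below the 40th percentile.

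**Figure D1:**
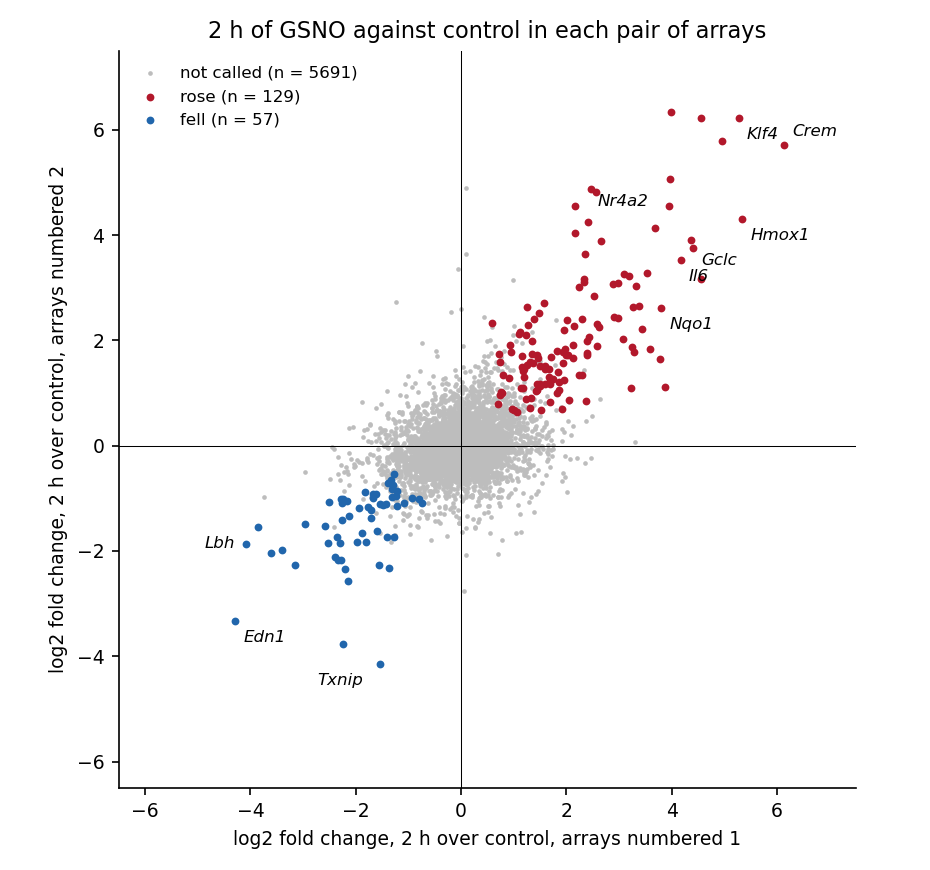
Log2 fold change of signal at 2 h of GSNO over control in the arrays numbered 1 (horizontal axis) and in the arrays numbered 2 (vertical axis), 1 point per probe set tested. The 129 probe sets that rose are red, the 57 that fell are blue and the rest are grey, and all coloured points lie in the upper right or lower left part.

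The call depended on the block. Without it, 46 probe sets rose (0.783%) and 11 fell (0.97% in all), all of them among the 186, and 31 of the 103 called genes kept a call in the probe set examined, the brightest one called. Egr1 and Klf10 kept one in another probe set. Leaving out 1 array lowered the count most for the 2 h array numbered 1 (81 called), the control array numbered 1 (111) and the 2 h array numbered 2 (117). A group is then left with 1 array, which is assumed to vary like the others. In the probe set examined, no called gene changed direction under any of 20 alternative settings, and 25 genes were called under all of them. Among these were 18 that rose: Cebpb, Crem, Cyp1b1, Dgat1, Errfi1, Gchfr, Gclc, Gdf15, Hk2, Hmox1, Ier3, Il6, Klf4, Nqo1, Nr4a1, Nr4a2, Nr4a3 and Pde4b. Ptp4a1 rose as well, and Bmp4, Btg1, Cnksr3, Edn1, Ets1 and Lbh fell under all of them. Dgcr6, Fgfr1, Metrnl and Tuba4a, which rose, and Klf6 and Prx, which fell, also kept a call without the block. Every other gene named below as risen or fallen passed with the block and missed the threshold without it. The kept direction is little separate support, since all 186 probe sets called moved the same way in both array pairs.

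The gene lists were chosen with earlier results of these data known, so their ranking is a description and tests nothing. The Krüppel-like and NR4A transcription factors held the largest share of called genes. Of 7 tested, 5 rose and 1 fell, and the median log2 fold change was 3.32 (2.56 and 4.24 in the array pairs), beside -0.07 over all 3474 genes tested. Over those genes, represented by 1 probe set each, 1.76% rose and 1.01% fell (2.76% in all). Klf4 is a zinc finger factor known for holding vascular smooth muscle cells in a less contractile state. Its signal was 244 and 110 on the control arrays numbered 1 and 2 and 8234 and 7206 after GSNO. This is 41.3-fold, or 5.37 ± 0.22 on the log2 scale (SE, n = 2; adjusted p = 1.61e-06). Klf10, a zinc finger factor induced early by TGF-beta, rose in all 3 of its probe sets, in the one with the smallest p from 102 and 188 to 943 and 1100 (2.70 ± 0.21, adjusted p = 6.16e-05). Both factors stood far above control on each array. Klf6 went the other way, from 809 and 803 to 72.6 and 149 (-2.71 ± 0.38, adjusted p = 0.00296). Klf9 stayed at 609 and 912 in control and 577 and 961 at 2 h (0.00, adjusted p = 1.00).

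The NR4A genes encode orphan nuclear receptors, which act without a known hormone and whose activity follows their amount. Nr4a1 signal was 745 and 272 in control and 4495 and 8207 at 2 h (3.68 ± 0.43, adjusted p = 0.000914). Nr4a2 was 143 and 114 in control and 846 and 2545 at 2 h (3.32 ± 0.37, adjusted p = 0.000569). For both, the 2 h array numbered 2 stood above the one numbered 1. Nr4a3 went from 130 and 28.6 to 3547 and 3712 (5.40 ± 0.38, adjusted p = 3.07e-05). A second Nr4a3 probe set read 219 and 183 in control and 416 and 421 at 2 h and did not pass (0.99 ± 0.35, adjusted p = 0.25).

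Genes known to respond to CREB and cAMP were the next group. Of 18 tested, 9 rose and 2 fell, with a median of 0.74. The 3 NR4A genes are members, as are Crem, Pde4b, Cebpb, Ier3, Dusp1 and Junb. Crem encodes activators and repressors that bind the same element as CREB, among them the short repressor ICER, which is made from an internal promoter. All 3 Crem probe sets rose, by 3.91 to 5.93. The brightest went from 278 and 240 to 6118 and 3892 (4.13 ± 0.18, adjusted p = 1.61e-06). The largest log2 fold change of all, 5.93 ± 0.37, belonged to a Crem probe set that read 10.7 and 38.5 in control and 2210 and 3117 at 2 h. Its control signals lay below the 40th percentile.

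Pde4b, a phosphodiesterase that breaks down cAMP, read 122 and 125 in control and 1192 and 1383 at 2 h (3.18 ± 0.20, adjusted p = 1.66e-05). Of its 4 probe sets 3 rose, and the last read 110 and 69.3 and then 246 and 141 (0.94, adjusted p = 0.216). Cebpb, a leucine zipper factor of stress and cytokine responses, went from 884 and 966 to 3981 and 4755 (2.21 ± 0.18, adjusted p = 8.52e-05). Ier3, an early response gene that affects cell survival, went from 883 and 482 to 4537 and 4302 (2.72 ± 0.27, adjusted p = 0.000317). The fold changes of these genes exceeded the spread between arrays several times over. Dusp1, a phosphatase that switches off MAP kinases, rose in all 3 of its probe sets by 0.83 to 1.25, in the brightest from 1931 and 1607 to 3777 and 2628 (adjusted p = 0.0453). Junb, an AP-1 subunit, went from 1002 and 463 to 2164 and 2074 (1.60 ± 0.24, adjusted p = 0.00451).

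The falling members of the CREB group were Egr1 and Bdnf. Egr1, an early zinc finger factor, went from 4446 and 2257 to 894 and 1111 (-1.65 ± 0.26, adjusted p = 0.00631). It fell in 3 of 4 probe sets, and the last gave -0.43 (adjusted p = 0.771). Without the block, 1 of the 3 still passed (adjusted p = 0.0434 for the probe set at -2.24). Bdnf, a neurotrophin, fell in 2 of 6 probe sets, the larger fall being from 746 and 810 to 213 and 301 (-1.54 ± 0.26, adjusted p = 0.00928). Cited2, a co-regulator that competes for CBP and p300, is a member whose brightest probe set did not pass (-0.96 ± 0.59, adjusted p = 0.601). Another of its probe sets went from 2507 and 820 to 619 and 217 (-1.90 ± 0.20, adjusted p = 0.00038). Fos read 655 and 442 in control and 853 and 706 at 2 h and did not pass (0.51, adjusted p = 0.494).

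**Figure D2:**
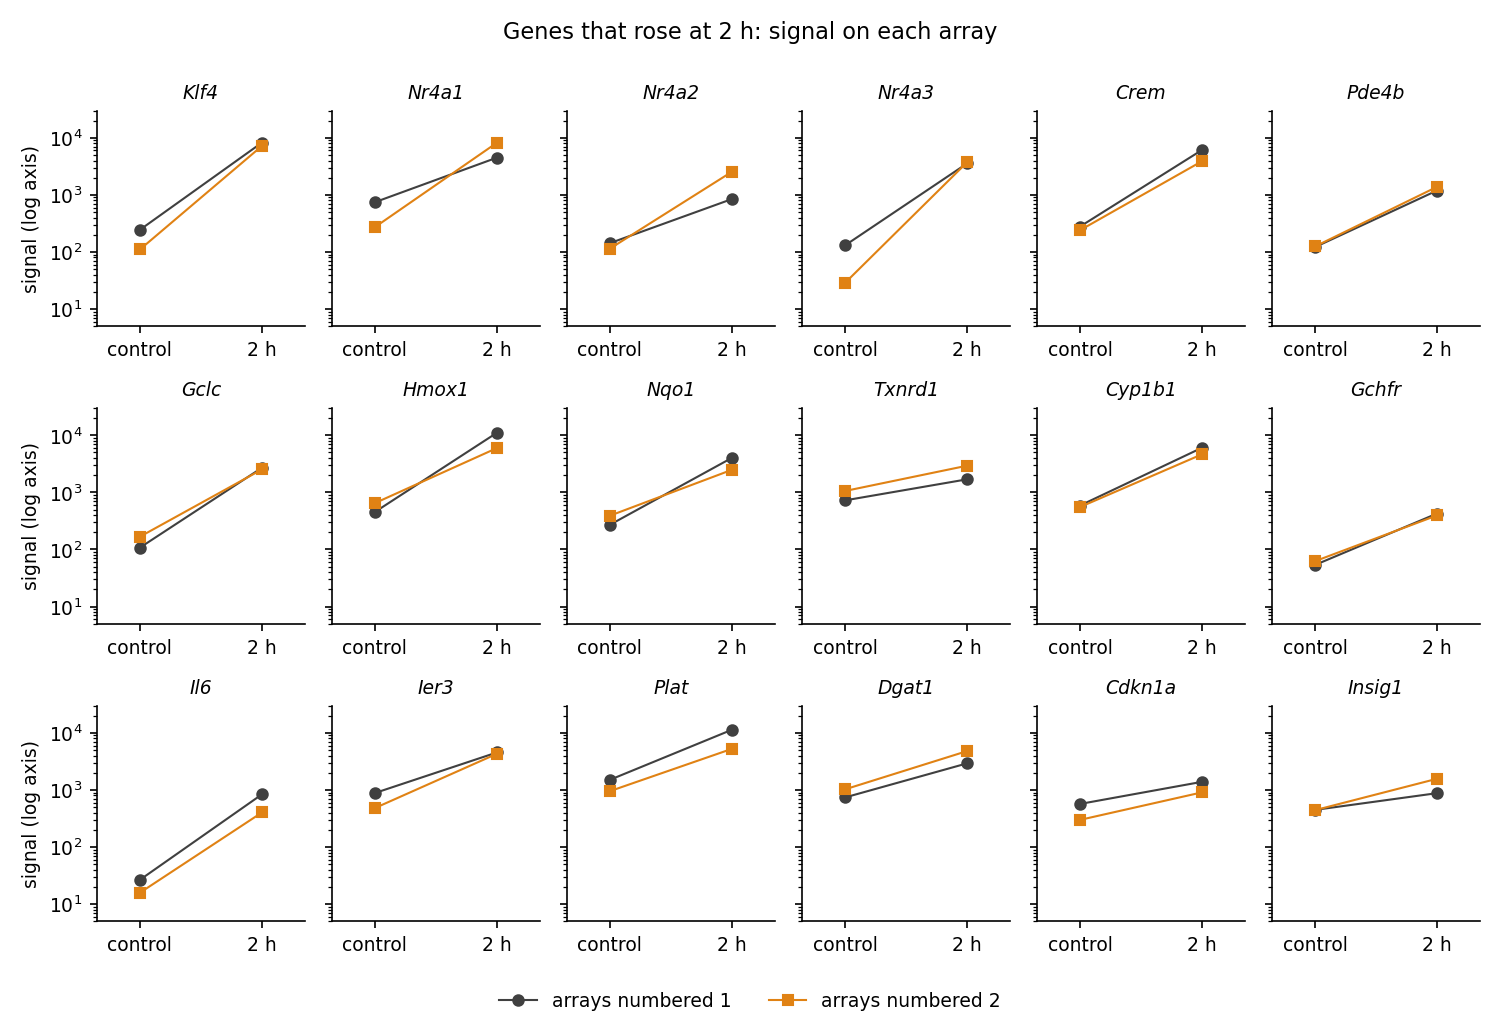
Signal of 18 genes that rose, on a log axis, in control and at 2 h of GSNO. Circles joined by a line are the arrays numbered 1 and squares the arrays numbered 2; in each panel both lines go up, from 26.6 and 15.8 to 837 and 403 for Il6, for instance.

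RefSeq promoter windows on the GRCr8 assembly were matched by symbol for 54 of the 66 rising genes (61 windows, since some genes have several starts) and 26 of the 37 falling genes. The 250 bases before each start were searched on both strands for TGACG, the core of the cAMP response element, which also lies inside the full element TGACGTCA. The core stood in 39.3% of the windows of rising genes and in 29.0% of those of falling genes. It stood in 27.4% of the windows of all genes tested and in 18.2% of all 33469 rat windows. The full element stood in 4 of the 61 windows of rising genes (6.56%), against 0 of those of falling genes, 2.61% of those of all genes tested and 1.59% of all windows. The 4 windows belong to Crem (at 2 of its 3 starts), Il6 and Dusp1. A match of letters is a description and shows no binding.

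The stretches below are 100 bases each, 5′ to 3′ on the strand of the gene, and are shown because they hold the matches in genes that rose. Capitals mark the full element in Crem (second start, chr17:58984695-58984794, plus strand), Il6 (chr4:5894684-5894783, minus strand) and Dusp1 (chr10:17184683-17184782, plus strand), and 2 copies of the core alone, on the opposite strand and so read as CGTCA, in Nr4a1 (chr7:134260037-134260136, plus strand).
Crem: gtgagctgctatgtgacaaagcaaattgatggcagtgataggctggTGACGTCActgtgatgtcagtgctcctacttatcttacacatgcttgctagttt
Il6: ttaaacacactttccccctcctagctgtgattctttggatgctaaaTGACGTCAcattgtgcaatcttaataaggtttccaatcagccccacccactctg
Dusp1: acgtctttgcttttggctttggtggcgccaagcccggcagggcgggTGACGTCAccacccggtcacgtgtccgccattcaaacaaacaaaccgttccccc
Nr4a1: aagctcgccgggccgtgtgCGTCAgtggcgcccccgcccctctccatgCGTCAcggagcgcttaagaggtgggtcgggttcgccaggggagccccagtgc

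The full element begins 56 bases before the start in Crem, 162 in Il6 and 124 in Dusp1. In Nr4a1 the window holds 4 copies of the core, the nearest 53 bases before the start. In their brightest probe sets, these genes rose by 0.83 (Dusp1), 3.68 (Nr4a1), 3.85 (Il6) and 4.13 (Crem).

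Antioxidant and detoxifying genes under NRF2 split between a few large rises and many small differences. Of 34 tested, 5 rose and 0 fell, with a median of 0.13. Gclc, the catalytic subunit of glutamate-cysteine ligase, the first step of glutathione synthesis, went from 108 and 167 to 2700 and 2527, a 16.9-fold change (4.08 ± 0.21, adjusted p = 4.68e-06). Hmox1, the inducible enzyme that breaks down haem, went from 454 and 649 to 11100 and 5984 (3.86 ± 0.29, adjusted p = 5.17e-05). Nqo1, a quinone reductase, went from 271 and 391 to 4034 and 2491 (3.20 ± 0.27, adjusted p = 9.71e-05). For Hmox1 and Nqo1 the 2 h array numbered 1 stood highest.

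The thioredoxin reductase gene Txnrd1, whose product keeps thioredoxin reduced, went from 1944 and 2461 to 3303 and 4996 (0.89 ± 0.16, adjusted p = 0.0113) and, in a second probe set, from 724 and 1058 to 1694 and 2934 (1.33 ± 0.17, adjusted p = 0.00131). Cbr1, a carbonyl reductase, went from 1105 and 1009 to 4659 and 1854 (1.46 ± 0.30, adjusted p = 0.0281), with a far larger step on the arrays numbered 1. Cbr1 and Txnrd1 were among 27 of the 103 called genes that missed the threshold when arrays were scaled to a common median. The brightest members that did not pass were Gstp1, at 3816 and 7127 and then 10735 and 7696 (0.80, adjusted p = 0.375), Gpx1 (0.06), Sod3 (0.14) and Sod1 (0.12). Txnip, which binds and inhibits thioredoxin, fell in both of its probe sets. It went from 567 and 1874 to 103 and 118 (-3.01 ± 0.36, adjusted p = 0.000972), and the array numbers differed more in control than at 2 h.

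The antioxidant response element, through which NRF2 acts, was searched by its core TGACNNNGC. It stood in 13 of 61 windows of rising genes (21.3%), in 12.9% of those of falling genes, in 13.2% of those of all genes tested and in 10.1% of all windows. Txnrd1 has a match that begins 78 bases before its first start, on the opposite strand (chr7:22755929-22756028, minus strand), and is shown because it is the only match in the windows searched of the NRF2 genes that rose. The windows of Gclc, Nqo1 and Cbr1 and that of the second Txnrd1 start hold 0 matches (Hmox1 was not analysed here). Capitals mark the core as read on the strand of the gene.
Txnrd1: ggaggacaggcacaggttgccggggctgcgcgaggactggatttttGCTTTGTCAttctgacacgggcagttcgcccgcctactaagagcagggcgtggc

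Among 11 tested genes of the xenobiotic and aryl hydrocarbon response, Cyp1b1 and Nqo1 rose and 0 fell. Cyp1b1, a cytochrome P450 that oxidises polycyclic compounds and oestrogens, rose in all 4 of its probe sets, by 2.82 to 3.21. Signal in the probe set with the smallest p was 588 and 554 in control and 6058 and 4652 at 2 h (3.17 ± 0.16, adjusted p = 4.68e-06). Por, the reductase that feeds electrons to these enzymes, rose in 1 of 3 probe sets, from 162 and 322 to 497 and 748 (1.33 ± 0.22, adjusted p = 0.00724). Its brightest probe set gave 0.88 (adjusted p = 0.0607).

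In the list of nitric oxide and cGMP signalling, 2 of 29 genes rose and 0 fell, with a median of -0.20. Gchfr, which restrains the first enzyme of tetrahydrobiopterin synthesis, a cofactor of nitric oxide synthases, went from 53.5 and 62.4 to 426 and 395 (2.45 ± 0.29, adjusted p = 0.000914). Both control values were below the 40th percentile. The other rise was Pde4b, which breaks down cAMP and is also counted among the CREB genes. Gucy1b1, the haem-binding subunit of soluble guanylate cyclase, read 3249 and 2273 in control and 2116 and 1460 at 2 h and missed the threshold (-0.62 ± 0.17, adjusted p = 0.0969). The partner subunit Gucy1a1 read 1831 and 3633 and then 843 and 2204 (-0.91 ± 0.29, adjusted p = 0.192). Npr3, the clearance receptor for natriuretic peptides, gave -0.63 (adjusted p = 0.198).

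Vasoactive ligands and receptors had 0 rises and 3 falls among 36 genes (median -0.04). Edn1, the precursor of the constrictor endothelin-1, showed the largest fall of all genes tested. Its signal was 1866 and 1056 in control and 74.9 and 86.3 at 2 h, a 14-fold fall (-3.81 ± 0.39, adjusted p = 0.000352). P2ry6, a receptor for UDP, went from 608 and 588 to 216 and 162 (-1.57 ± 0.26, adjusted p = 0.00722). Gpr176, an orphan receptor, went from 2701 and 3074 to 1098 and 2111 (-0.91 ± 0.21, adjusted p = 0.0454), and a second probe set gave -0.59 (adjusted p = 0.443). Agtr1a, the angiotensin II receptor, gave -0.49 (adjusted p = 0.373) and Tbxa2r, the thromboxane receptor, -0.72 (adjusted p = 0.122), neither of which passed.

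Contractile genes had 0 calls in either direction among 26 tested (median -0.22, range -1.40 to 0.47). Over all genes tested 1.76% rose and 1.01% fell, so few calls or 0 are due in such a list. Of the 26, 21 lay below 0, against 2055 of all 3474 genes, whose median was -0.07. This tilt is not particular to contractile genes. Below 0 were also 35 of 43 ribosomal protein genes and 30 of 42 matrix genes, but 11 of 34 in the NRF2 list. Tagln read 17560 and 11841 in control and 16958 and 9837 at 2 h (-0.16, adjusted p = 0.813), and Acta2 gave -0.37 (adjusted p = 0.457). Calcium handling and channel genes likewise had 0 calls among 46 (median -0.09, range -0.86 to 0.71). An adjusted p above the threshold does not show that these genes did not change.

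Secreted signals went in both directions. In the inflammatory list 3 of 36 rose and 1 fell (median 0.15). Il6, the cytokine interleukin-6, went from 26.6 and 15.8, both below the 40th percentile, to 837 and 403 (3.85 ± 0.39, adjusted p = 0.000343). Its receptor Il6r went from 82.4 and 103 to 263 and 373 (1.56 ± 0.27, adjusted p = 0.00994). Nfkb1, the p105 precursor of an NF-kB subunit, went from 870 and 967 to 2029 and 2425 (1.25 ± 0.19, adjusted p = 0.00402). These rose while brighter members such as Spp1 (-0.16) and B2m (0.10) did not pass. Tnfrsf11b, osteoprotegerin, a decoy receptor for RANK ligand, fell from 4974 and 3732 to 1894 and 2273 (-1.05 ± 0.21, adjusted p = 0.0217).

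Of 34 genes of the BMP and TGF-beta pathway, 2 rose and 1 fell (median 0.04). Bmp4, a bone morphogenetic protein, went from 773 and 766 to 53.6 and 178 (-2.70 ± 0.35, adjusted p = 0.0016). Gdf15, a distant relative made under stress, went from 20.2 and 23.0 to 407 and 255 (3.01 ± 0.36, adjusted p = 0.00104). Id2, an inhibitor of helix-loop-helix factors and a target of BMP signals, went from 345 and 525 to 2173 and 1994 (2.23 ± 0.35, adjusted p = 0.0052). Bmp4 thus fell where Id2 rose, and Id3, a relative of Id2, gave -0.02 (adjusted p = 0.989). Tgfb3 read 6770 and 3037 and then 3266 and 2117 and did not pass (-0.78, adjusted p = 0.142).

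Growth factors and their receptors had 2 rises and 1 fall among 43 genes. Vegfa, the vascular endothelial growth factor, went from 308 and 387 to 909 and 1146 (1.51 ± 0.32, adjusted p = 0.03). Its other 3 probe sets gave 1.21 to 1.63 and did not pass. Fgfr1, a fibroblast growth factor receptor, went from 750 and 844 to 2085 and 1929 (1.31 ± 0.17, adjusted p = 0.00204). It rose in 2 of 3 probe sets, the exception being a weak one (0.85, adjusted p = 0.514). The fall was Bdnf.

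Early response and signalling genes were divided. Of 19 immediate early factors, 3 rose (Dusp1, Ier3, Junb) and 3 fell, with a median of 0.09. Beside Egr1, the falls were Ets1, a factor of matrix and vessel genes, from 515 and 530 to 72.0 and 131 (-2.19 ± 0.27, adjusted p = 0.0012), and Ccn1, a matrix-bound signal, from 588 and 126 to 98.6 and 23.3 (-2.04 ± 0.32, adjusted p = 0.00565). Ets1 was called in 1 of 2 probe sets, and the other gave -1.60. The 2 control arrays differed several-fold for Ccn1. Of 18 MAP kinase phosphatases and feedback genes, 2 rose and 4 fell, the largest share of falls in any list. Without the block 1 of these falls passed. Errfi1, which blocks the EGF receptor, went from 148 and 282 to 1306 and 2571 (3.04 ± 0.21, adjusted p = 3.07e-05), and Dusp1 was the other rise.

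Feedback genes of the ERK pathway were among the falls. Dusp6, a phosphatase of ERK, went from 240 and 322 to 31.8 and 73.8 (-2.08 ± 0.46, adjusted p = 0.0394). Spry1, an inhibitor of receptor signals to RAS, went from 774 and 659 to 187 and 278 (-1.56 ± 0.30, adjusted p = 0.0206). Cnksr3, a scaffold that dampens ERK signals, went from 2257 and 1388 to 165 and 322 (-2.83 ± 0.33, adjusted p = 0.000914). Map3k1, a kinase upstream of JNK, went from 641 and 822 to 225 and 370 (-1.27 ± 0.28, adjusted p = 0.0394) in 1 of 3 probe sets.

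Of 42 other transcription factors and repressors, 5 rose and 1 fell (median 0.01). Hoxa5, a homeobox factor, went from 34.4 and 129 to 299 and 1058 (2.69 ± 0.35, adjusted p = 0.00163), with a steady step between arrays of very different level. Lbh, a transcriptional co-regulator of heart and limb, fell from 3003 and 2049 to 158 and 547 (-2.97 ± 0.40, adjusted p = 0.00227). Outside the lists, Maf, a leucine zipper factor, fell in 2 of 3 probe sets, from 1339 and 1441 to 468 and 648 in the brightest (-1.30 ± 0.19, adjusted p = 0.00414).

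**Figure D3:**
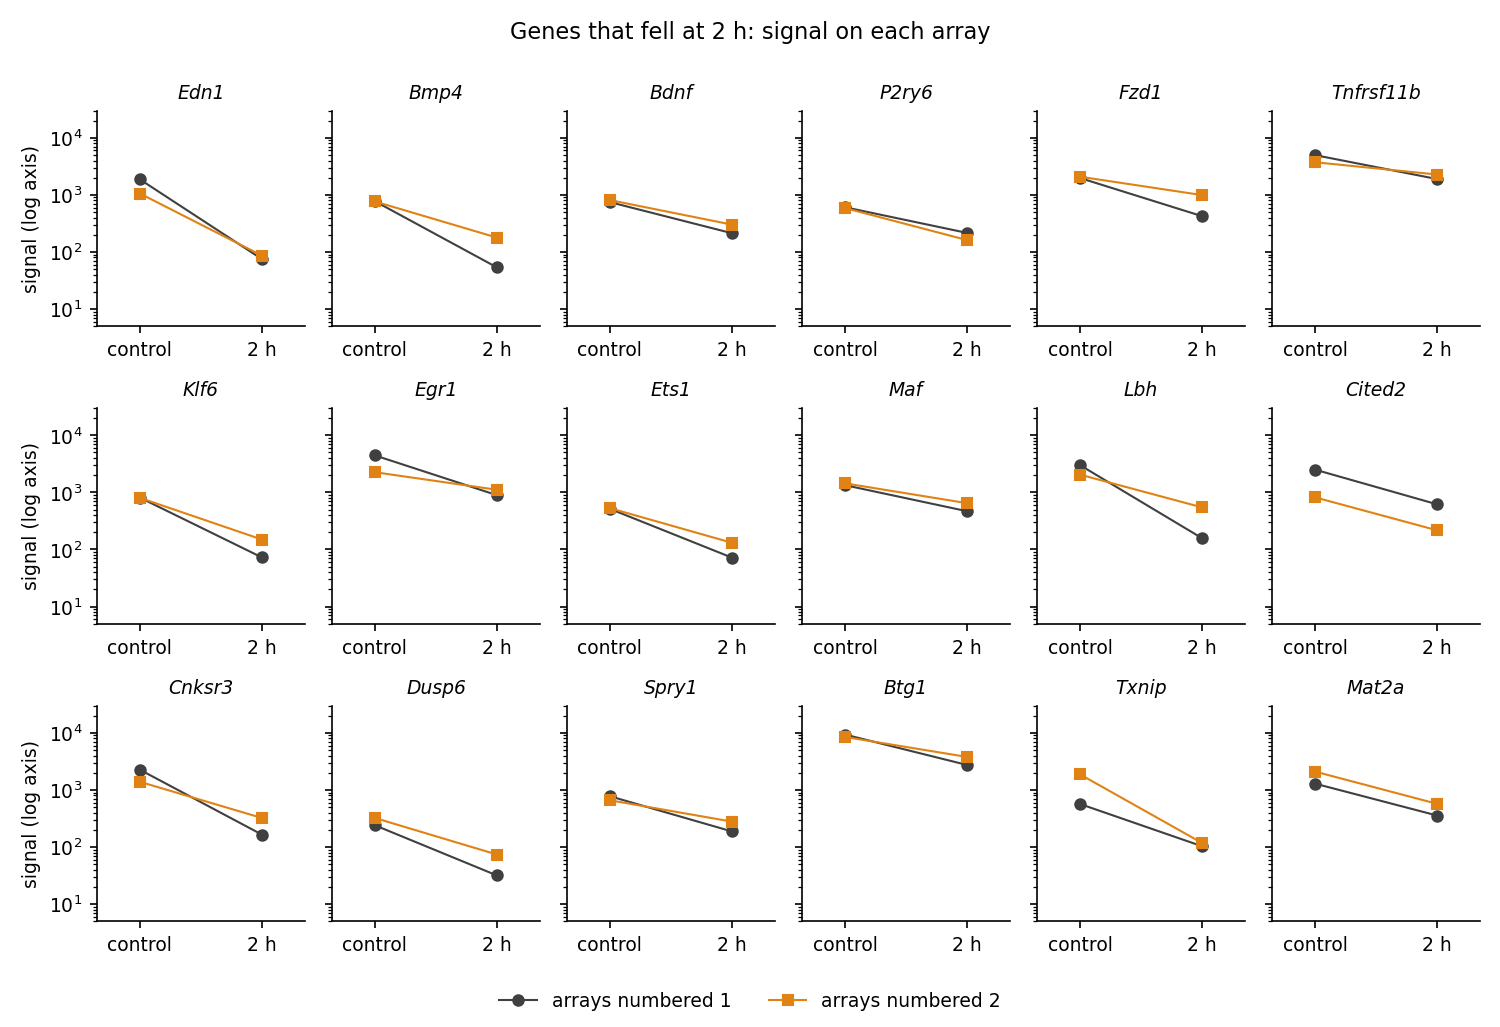
Signal of 18 genes that fell, on a log axis, in control and at 2 h of GSNO. Circles are the arrays numbered 1 and squares the arrays numbered 2; both lines go down in each panel, from 1866 and 1056 to 74.9 and 86.3 for Edn1, for instance.

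Growth control showed 3 rises and 2 falls among 43 genes (median 0.08). Cdkn1a, the cyclin-dependent kinase inhibitor p21, went from 568 and 299 to 1387 and 907 (1.40 ± 0.24, adjusted p = 0.0109) and rose in both probe sets. Bcl2l11, the death-promoting protein BIM, rose in 3 of 4 probe sets, from 262 and 193 to 693 and 377 in the brightest (1.12 ± 0.23, adjusted p = 0.0281). Mxi1, an antagonist of MYC, went from 373 and 654 to 1172 and 1490 (1.38 ± 0.30, adjusted p = 0.0377). These 3 genes are known as brakes on growth or survival. Btg1, also known as an antiproliferative gene, fell from 9335 and 8474 to 2737 and 3783 (-1.46 ± 0.18, adjusted p = 0.00117), and Mcm7, a helicase subunit of DNA replication, from 806 and 1076 to 475 and 494 (-0.91 ± 0.20, adjusted p = 0.0376).

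Among 30 genes of endoplasmic reticulum stress and the integrated stress response, 5 rose and 0 fell (median 0.12). Besides Cebpb, Gdf15 and Vegfa these were Ddit3, the stress factor CHOP, from 198 and 267 to 602 and 611 (1.32 ± 0.29, adjusted p = 0.0369), and Slc3a2, the heavy chain of several amino acid transporters, from 1834 and 2023 to 3077 and 3981 (0.85 ± 0.16, adjusted p = 0.014). The chaperones of the endoplasmic reticulum did not pass, with -0.11 for P4hb, -0.03 for Calr, 0.16 for Hsp90b1 and 0.18 for Pdia3. Heat shock proteins had 0 calls in either direction among 22 genes (median 0.02, range -0.99 to 0.58), beside 1.76% risen and 1.01% fallen over all genes. Hsp90ab1 read 10756 and 7584 in control and 10243 and 10001 at 2 h, and Hspb1 gave -0.24 (adjusted p = 0.75).

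In cholesterol synthesis and uptake, 2 of 23 genes rose and 2 fell (median -0.01). Insig1, which holds the SREBP factors back, went from 527 and 395 to 808 and 2069 (1.46 ± 0.33, adjusted p = 0.0445), and Idi1, an isomerase of the isoprenoid pathway, from 215 and 146 to 578 and 644 (1.67 ± 0.28, adjusted p = 0.00856). Fdft1, squalene synthase, fell from 543 and 432 to 222 and 185 (-1.18 ± 0.23, adjusted p = 0.0196). It was called in 2 of 4 probe sets, which ran from -1.85 to -0.51. Msmo1, a sterol oxidase, fell from 1653 and 1297 to 701 and 704 (-1.04 ± 0.18, adjusted p = 0.0119) in 1 of 2 probe sets, and the other gave -0.93. Enzymes of a single pathway thus moved in opposite directions, and Fdps, the farnesyl synthase between them, gave 0.00 (adjusted p = 0.998). Outside this list Dgat1, which makes triglyceride, went from 738 and 1022 to 2917 and 4785 (2.08 ± 0.16, adjusted p = 5.17e-05).

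The list of glycolysis, lactate and glucose uptake had 2 rises and 0 falls among 30 genes (median 0.05) when each was represented by its brightest probe set. Slc16a1, the lactate carrier MCT1, went from 315 and 460 to 995 and 1345 (1.55 ± 0.18, adjusted p = 0.000914). The other was Vegfa, a growth factor whose call is also counted in the growth factor and stress lists. Hk2, a hexokinase, disagreed between its probe sets. The brighter went from 375 and 489 to 672 and 1473 and did not pass (1.18 ± 0.37, adjusted p = 0.171). The weaker went from 65.1 and 10 to 1349 and 2488 (5.16 ± 0.62, adjusted p = 0.001). Glycolytic enzymes such as Pgam1 (-0.04), Eno1 (-0.04), Pkm (-0.14) and Aldoa (0.03) did not pass.

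Smaller numbers were called in the remaining metabolic lists. Among 20 genes of arginine, polyamine and amino acid metabolism, Azin1, an inhibitor of antizyme, rose from 292 and 331 to 516 and 682 (0.89 ± 0.20, adjusted p = 0.0458). Mat2a, which makes S-adenosylmethionine, fell from 1289 and 2097 to 356 and 571 (-1.82 ± 0.19, adjusted p = 0.00038). Of 47 solute carriers and pumps, Slc16a1 and Slc3a2 rose and 0 fell. Of 10 clock genes, Per2, a repressor of the clock, rose from 98.7 and 259 to 251 and 577 (1.14 ± 0.24, adjusted p = 0.0281). Csnk1d (0.71, adjusted p = 0.0721) and Bhlhe40 (0.98, adjusted p = 0.099) missed the threshold. Azin1, Per2 and Slc3a2 were also among the 27 genes that lost their calls with arrays scaled to a common median.

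Among 32 proteases, inhibitors and genes of coagulation and fibrinolysis, 2 rose and 0 fell (median -0.03). Plat, tissue plasminogen activator, which starts fibrinolysis, went from 1504 and 952 to 11337 and 5248 (2.67 ± 0.18, adjusted p = 2.89e-05). Without the block it just missed (adjusted p = 0.0559). Cd55, which protects cells from complement, went from 21.5 and 65.6 to 181 and 200 (1.80 ± 0.34, adjusted p = 0.0177) in 1 of 2 probe sets, and the other gave 0.70. Thbd, thrombomodulin, a thrombin receptor that limits clotting, rose in 1 of 2 probe sets, from 108 and 247 to 499 and 1384 (2.20 ± 0.21, adjusted p = 0.000241). The brighter probe set gave 0.97 (adjusted p = 0.0938). Thbd is also on the list of endothelial markers. The other 3 tested markers of that list lay below 0, with -0.58 for Flt1, -0.79 for Nos3 and -0.19 for Pecam1, and 0 of them passed. The part of other cells in the rise of Thbd was not tested.

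In the matrix list 2.38% rose, and in the adhesion and cytoskeleton list 3.92% rose and 3.92% fell, against 1.76% and 1.01% over all genes. Of 42 matrix genes, Sdc4, a heparan sulphate proteoglycan of focal adhesions, rose from 2707 and 2402 to 10522 and 5720 (1.60 ± 0.19, adjusted p = 0.000992) and 0 fell. A second Sdc4 probe set rose by 0.84 (adjusted p = 0.021), and a weak one gave -0.39 (adjusted p = 0.817). Elastin (Eln, -0.18), Bgn (-0.23), Fn1 (-0.23) and Sparc (0.05) did not pass. Of 51 adhesion and cytoskeletal genes, 2 rose and 2 fell. Tuba4a, an alpha-tubulin, went from 61.7 and 25.9 to 348 and 750 (3.10 ± 0.47, adjusted p = 0.00464) and Ezr, ezrin, from 207 and 524 to 808 and 1110 (1.46 ± 0.30, adjusted p = 0.0277). Ptk2, the focal adhesion kinase, fell from 2265 and 2173 to 896 and 1211 (-1.07 ± 0.22, adjusted p = 0.0262), and Prx, periaxin, from 450 and 380 to 87.3 and 139 (-1.72 ± 0.29, adjusted p = 0.00893).

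The last lists hold housekeeping genes. Of 43 ribosomal protein genes and 27 proteasome genes, 0 passed in either direction, with medians of -0.08 and -0.03. Over all genes tested 1.76% rose and 1.01% fell, so few calls or 0 are due in lists of this size. Of 56 genes of the mitochondrial respiratory chain, Ndufa5, a subunit of complex I, rose from 1780 and 1079 to 3387 and 2660 (1.10 ± 0.20, adjusted p = 0.0127), and the median was 0.04.

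**Figure D4:**
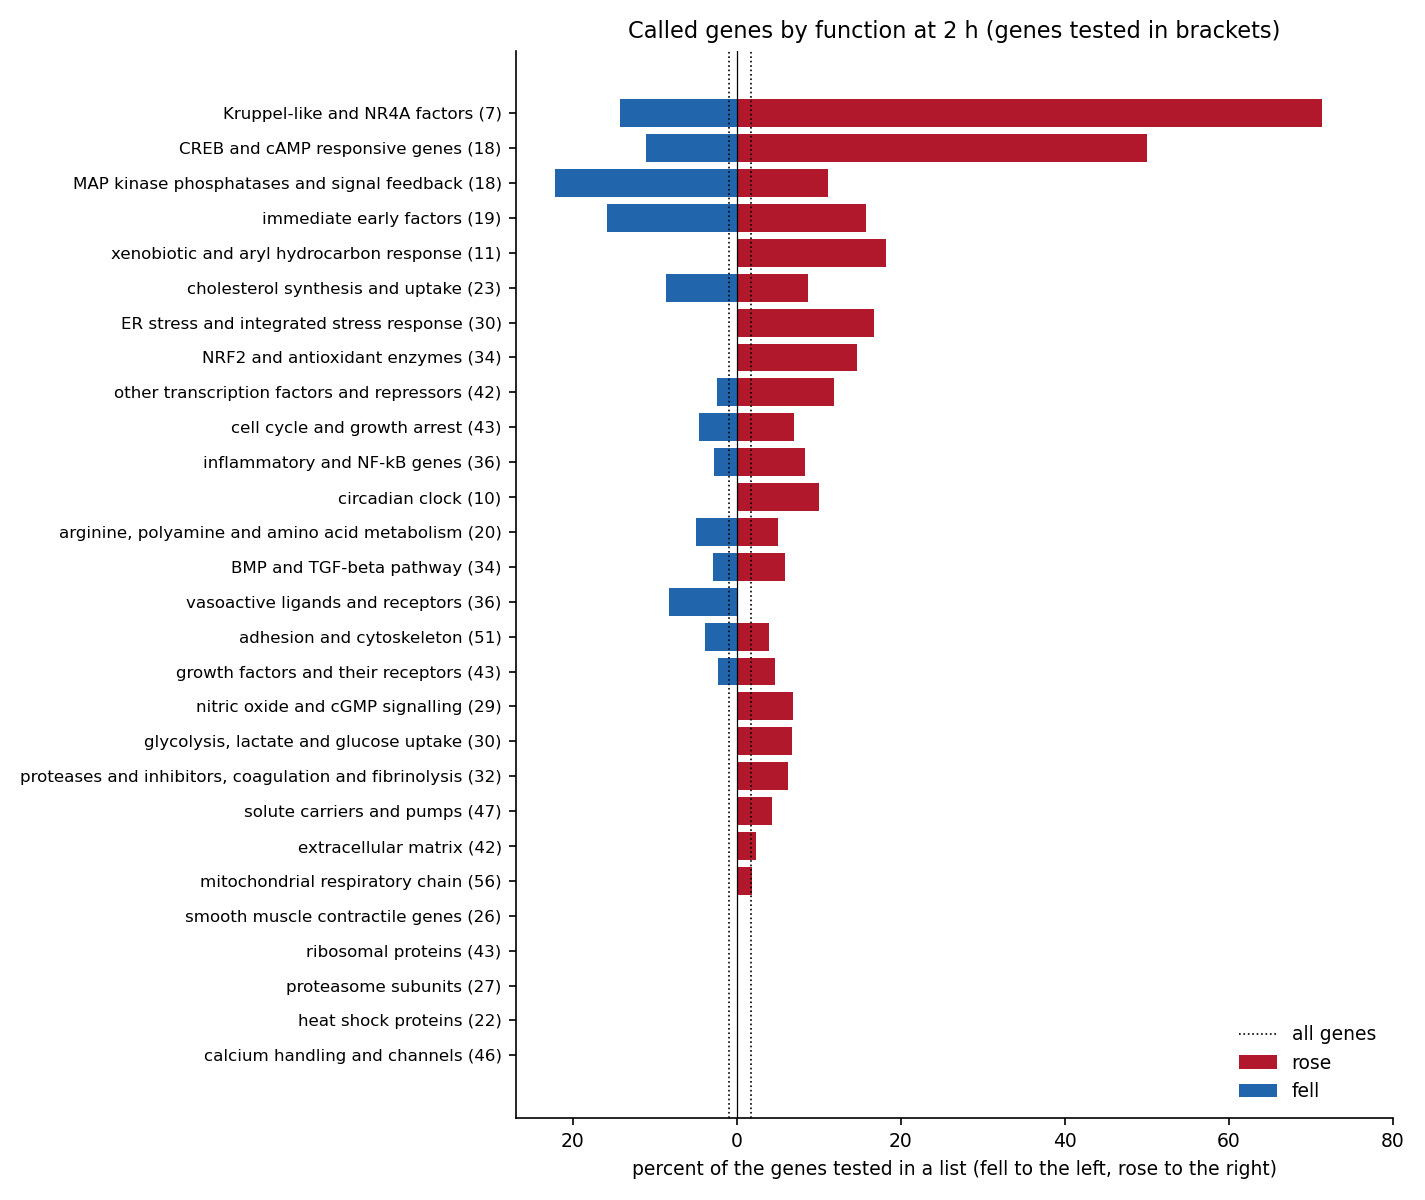
Share of the genes tested in each of 28 lists that rose (red, to the right) or fell (blue, to the left) at 2 h, with the number tested in brackets and 1 probe set per gene. Dotted lines mark all 3474 genes (1.76% rose, 1.01% fell); Krüppel-like and NR4A factors and CREB responsive genes hold the longest red bars, and genes may belong to several lists.

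Of the 103 called genes, 69 belong to at least 1 of the 28 lists, 46 of them risen and 23 fallen. Among the rest, Cwc25, a splicing factor, went from 131 and 135 to 756 and 1914 (3.0 ± 0.35, adjusted p = 0.000928). Metrnl, a secreted protein, went from 227 and 460 to 2390 and 1623 (2.53 ± 0.39, adjusted p = 0.0047). Traf3ip2, an adaptor of interleukin-17 signals, went from 280 and 192 to 1557 and 685 (2.06 ± 0.22, adjusted p = 0.000448). Ptp4a1, a small phosphatase, went from 2284 and 2388 to 8773 and 7103 (1.75 ± 0.17, adjusted p = 0.00026), and these arrays agreed closely within each group.

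Other genes outside the lists rose as well. Efna1, an ephrin ligand, rose in both probe sets (1.23 and 2.19), and Dgcr6 rose by 2.00. Emd, emerin of the nuclear envelope, rose by 1.12 and 1.48 and Mapk6, an atypical MAP kinase, by 1.31 and 1.69. Homer1, a scaffold of calcium signalling, rose in 2 of 4 probe sets (1.54 and 1.33). Penk, the enkephalin precursor, rose by 1.61, Ptprn by 1.51 and Man1a1 by 1.43. Bok, a BCL2 relative, rose by 1.07 and 1.94, and Tmem120a by 1.45 and 1.56. Gja4, connexin 37 of gap junctions, went from 273 and 1352 to 1508 and 2450 (1.61 ± 0.33, adjusted p = 0.0281), and its control arrays differed widely. Aplp2 and Chrnb4 rose in 1 probe set only (1.16 and 1.53), and their brighter probe sets gave -0.07 and -0.38.

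Among falls outside the lists, the Wnt receptors Fzd1 and Fzd2 fell together. Fzd1 went from 1976 and 2081 to 424 and 992 (-1.61 ± 0.27, adjusted p = 0.00796) and Fzd2 from 1139 and 1758 to 528 and 813 (-1.09 ± 0.21, adjusted p = 0.0215). Cdc42ep3, an effector of CDC42 in the actin skeleton, went from 689 and 1235 to 222 and 239 (-1.91 ± 0.28, adjusted p = 0.00402). Aopep (-1.79), Ptpn21 (-1.35), Sh2d4a (-1.30), Casp2, a caspase (-1.27), Ubald1 (-1.15), Ankrd1 (-1.10), Slc6a9, a glycine transporter (-1.02), and Mmadhc (-0.96) fell too. Aopep and Ptpn21 were called in 1 of 2 probe sets each, and the other gave -0.71 and -0.99. Casp2 was called in 1 of 3, which ran from -1.29 to 0.20. Apoc3, an apolipoprotein of the liver, fell in a weak probe set (-1.51, adjusted p = 0.0376), while its brighter probe set gave 0.36 (adjusted p = 0.641).

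Where a gene had several probe sets, they often differed. Of the 56 called genes with more than 1 tested probe set, 29 had all of them called. Wide gaps were seen for Hk2 (5.16 against 1.18), Nr4a3 (5.40 against 0.99) and Errfi1 (3.26 against 1.02). The larger values start from weak control signals: both control arrays lay below the 40th percentile for Hk2 (65.1 and 10) and for Errfi1 (66.7 and 63.2), and Nr4a3 read 28.6 on 1 of them. The lower Errfi1 value came from a probe set that is weaker still in control (15.0 and 8.87), and its brightest probe set gave 3.04. The size of change is uncertain for these genes.

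The 2 h level was also set against the earlier and the later time. Both share their controls with the 2 h comparison, so the times were tested against each other directly. At 1 h, 79 probe sets differed from control (1.34%) and at 4 h 466 (7.93%). Between 1 h and 2 h, 2 probe sets passed, both higher at 2 h (0.034%), and 431 had an unadjusted p under 0.05. The 1 h and 4 h arrays numbered 1 share a recorded experiment that is not the one of the 2 h array numbered 1, and the 1 h array also differs from it in chip lot. With the recorded experiment as the block 0 passed. Without the block 0 passed, and leaving out 1 array gave between 0 and 12. Nqo1 signal was 271 and 391 in control, 363 and 301 at 1 h, 4034 and 2491 at 2 h and 10284 and 6713 at 4 h. Its difference between 1 h and 2 h was 3.18 ± 0.27 (adjusted p = 0.00195, and 0.07 without the block). Cyp1b1 signal was 2606 and 1817 at 1 h and 6058 and 4652 at 2 h, a difference of 1.28 ± 0.16 (adjusted p = 0.0468). At 1 h, then, this Nqo1 probe set read close to its control values, while Cyp1b1 stood above its own (588 and 554). A weaker Nqo1 probe set read 26.5 and 35.6 in control and 59.6 and 89.0 at 1 h, and its difference between 1 h and 2 h did not pass (1.85, adjusted p = 0.209).

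Between 2 h and 4 h, 32 probe sets passed (0.544%), 12 higher and 20 lower at 4 h, and 752 had an unadjusted p under 0.05. With the recorded experiment as the block 1 passed, and without the block 0 did. The balance depended on scaling: with arrays set to a common median, 16 were higher and 10 lower, and the median over all probe sets moved from -0.09 to 0.16. Leaving out the 2 h array numbered 2 left 1 call and the 2 h array numbered 1 left 11. Leaving out the 4 h array numbered 1 or 2 gave 61 or 102.

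Some of these genes had not passed at 2 h and fell later. Gucy1b1 signal was 3041 and 2267 at 1 h, 2116 and 1460 at 2 h and 315 and 253 at 4 h, which is -2.55 ± 0.17 between 2 h and 4 h (adjusted p = 0.00019). Gucy1a1 read 843 and 2204 at 2 h and 108 and 610 at 4 h (-2.28 ± 0.29, adjusted p = 0.0127). Both subunits of soluble guanylate cyclase were therefore lower at 4 h than at 2 h on each array number. Pln, phospholamban, which restrains the calcium pump of the sarcoplasmic reticulum, read 916 and 351 at 2 h and 150 and 101 at 4 h (-2.03 ± 0.24, adjusted p = 0.0121). Tnfrsf11b, already down at 2 h, went on from 1894 and 2273 to 522 and 584 (-1.87 ± 0.21, adjusted p = 0.00819).

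Others had passed at 2 h and then moved back or further. Nr4a2 read 2802 and 2768 at 1 h, 846 and 2545 at 2 h and 279 and 378 at 4 h (-2.11 ± 0.37 between 2 h and 4 h, adjusted p = 0.0442). Cwc25 read 756 and 1914 at 2 h and 118 and 462 at 4 h (-2.24 ± 0.35, adjusted p = 0.0325). Txnip, low at 2 h, read 103 and 118 then and 483 and 988 at 4 h (2.44 ± 0.36, adjusted p = 0.0259). Slc16a1 went on rising, from 995 and 1345 at 2 h to 2017 and 3283 at 4 h (1.14 ± 0.18, adjusted p = 0.0325), as did Fgfr1, from 1127 and 1811 to 4066 and 3599 in the probe set that passed (1.41 ± 0.22, adjusted p = 0.0315).

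**Figure D5:**
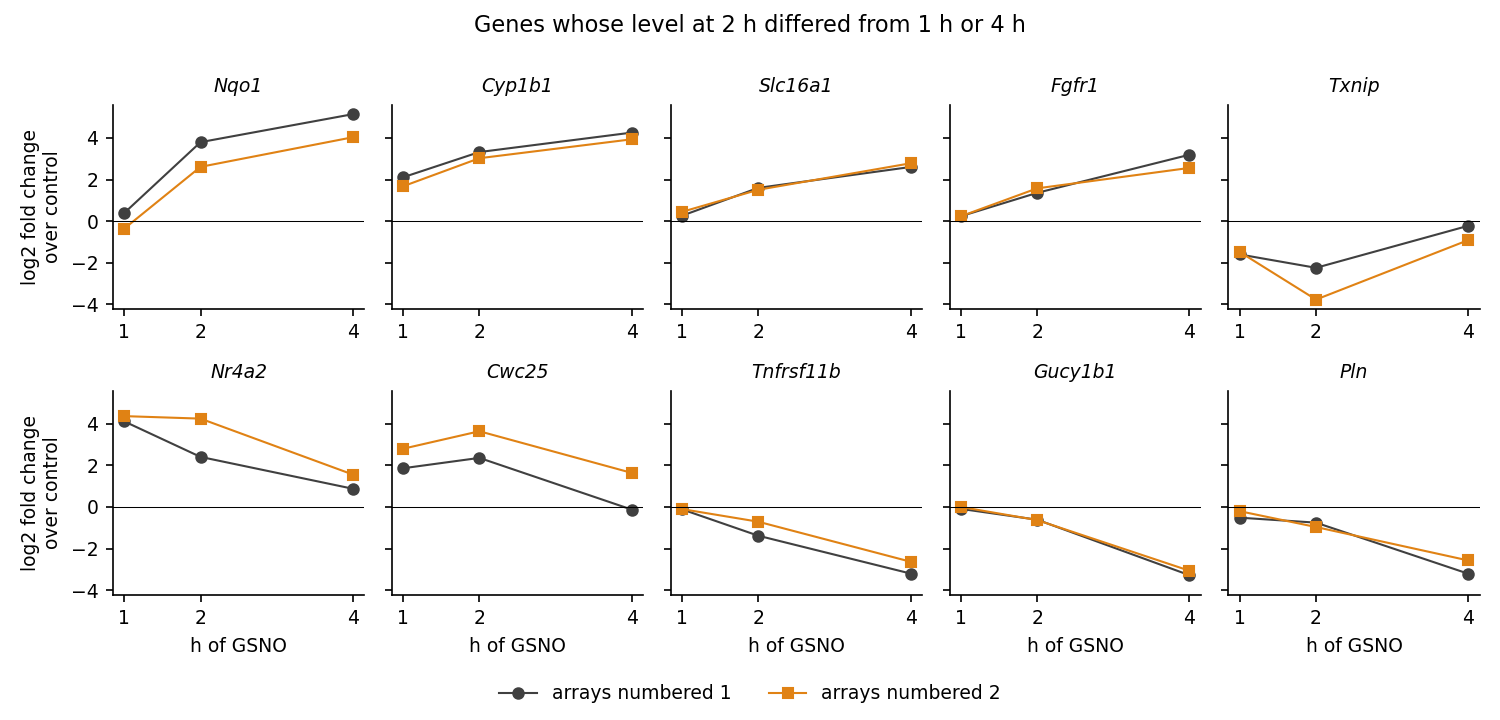
Log2 fold change over control at 1, 2 and 4 h of GSNO for 10 genes, with circles for the arrays numbered 1 and squares for those numbered 2. Each gene differed between 2 h and an adjoining time; Gucy1b1 and Pln drop after 2 h, Nqo1 and Cyp1b1 climb from 1 h on, and Nr4a2 and Cwc25 come down, and all values of an array number share the same control array.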

How the data were processed

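RNA of 8 arrays was measured. Per the series design, biotin-labelled cRNA was hybridised to the arrays and the authors analysed the scans with Affymetrix GeneChip 5.0 software. What the authors deposited is an intensity for each probe set (its signal, on a linear scale). Their trimmed means (2% off each end) were 500.7 to 501.0 on all arrays, so they were used as deposited. The files carry no detection calls. Gene names come from the platform annotation in GEO: 7006 of the 8740 probe sets had 1 symbol, 308 several and 1426 none.

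Signals were turned into log2(signal + 21.1), the offset being the median of the arrays' 20th percentiles. A probe set was tested if it reached the 40th percentile on at least 2 of 8 arrays. limma 3.58.1 in R 4.3.3 fitted all 4 groups with the array number as a block (3 residual degrees of freedom, eBayes with trend). Two-sided p-values were adjusted (Benjamini-Hochberg) across all 5877 tested probe sets and called under 0.05. The block is used because the comparison pairs arrays by number and because deviations of same-numbered arrays from their group means correlated at 0.387 to 0.569 in all 6 pairs of groups. The number of arrays limits the precision. The script was tested on simulated data.

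The 28 function lists and 6 marker lists, and the comparison itself, were chosen with earlier results of these data known. Each gene in a list is represented by its probe set with the highest mean log2 signal. Named genes are the largest rises and falls that agree in both array pairs, called list members, the brightest members not called, disagreeing probe sets of named genes, and genes that differed between times. RefSeq promoter windows end 50 bases after the start, and only the 250 before it were searched.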

Additional observations from a re-analysis of the deposited data

Results flagged for a closer look

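Differences between exposure times are given here for genes that passed limma's test of 2 h against 1 h or of 4 h against 2 h. Every one of them missed the threshold without the replicate block. Values are log2 fold changes of the later over the earlier time, 1 per probe set that passed.

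Between 1 h and 2 h, 2 genes were higher at 2 h: Nqo1 (3.18) and Cyp1b1 (1.28).

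Between 2 h and 4 h, the genes higher at 4 h included Nqo1 (2.76), Cyp1b1 (0.92 and 1.34), Sod2, the mitochondrial superoxide dismutase (1.54), Me1, malic enzyme (1.21), and Txnip (2.44). Srebf1, a regulator of lipid synthesis (1.83), Gda, guanine deaminase (2.14), Bcat1, an aminotransferase of branched-chain amino acids (1.16), Slc16a1 (1.14) and Fgfr1 (1.41) were higher as well.

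Lower at 4 h were the guanylate cyclase subunits Gucy1b1 (-2.55) and Gucy1a1 (-2.28), Pln (-2.03), the angiotensin receptor Agtr1a (-1.37) and the actin-linked Nexn (-1.72) and Sorbs2 (-2.36). The nuclear receptors Nr4a2 (-2.11 and -2.42) and Nr4a3 (-1.93, in the probe set that did not pass at 2 h), Id3 (-1.29), Cwc25 (-2.24), Bmp3 (-1.96) and Tnfrsf11b (-1.87) were lower too. So were Sdc3 (-1.71), Grb14, an adaptor of insulin receptor signals (-1.34), Plpp1, a lipid phosphatase (-1.12 and -1.15), and Dcn, decorin (-2.79). The Dcn probe set was uneven across all times: it read 170 and 200 in control, 16.1 and 25.9 at 1 h, 158 and 372 at 2 h and 16.0 and 18.5 at 4 h. A second Dcn probe set did not pass.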

How the results depend on the processing

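The direction of every called gene held under the 20 alternatives, and calls did not. The kept direction is little separate support. All probe sets called moved the same way in both array pairs, and dropping the block or the trend leaves a fold change as it is. Without the replicate block that pairs the arrays, 57 probe sets were called for 2 h against control in place of 186. Without a variance trend 92 were called, and leaving out 1 array gave 81 to 225. The recorded experiment as the block gave 152, a common median 152, quantile normalization 176, no filter 169 and the compared groups alone 231. With a common median, 27 of the 103 genes lost their call.

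For 2 h against 1 h, 2 probe sets were called. The count was 0 without the replicate block, without a trend and when the recorded experiment was the block. It was 1 with the offset halved, with no offset, with either other filter, with a common median and with quantile normalization. It was 8 with double the offset or no filter and 146 with the compared groups alone, and leaving out 1 array gave 0 to 12. For 4 h against 2 h, 32 were called. The count was 0 without the replicate block, 1 with the recorded experiment, 2 without a trend, 15 without an offset, 21 with the 60th percentile filter and 101 with the compared groups alone, and leaving out 1 array gave 1 to 102. The causes of these shifts were not tested.

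Representing a gene by the median of its probe sets moved 22 of 28 list medians by less than the SD of the 2 array pairs, and 5 medians changed sign. Signals near background limit weak genes: 18 rises started below the 40th percentile in control.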
